A study of Mus musculus with 16 samples.

Results

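The genes described here are 10 genes of transforming growth factor beta (TGF-beta) signalling and of other growth factor systems: Tgfb1, Tgfb2, Tgfbr1, Tgfbr2, Tgfbi, Vegfa, Vegfc, Egfr, Osmr and Pdgfa. Every probe whose platform symbol is one of these names was taken, which gave 16 of the 24607 probes of the array's value table (10 of 15161 gene symbols). RNA of peritoneal macrophages was hybridised to 16 Illumina Mouse Ref-8 v1.1 BeadChip arrays. All mice were female and Apoe-/-, so without apolipoprotein E, a deficiency that raises plasma cholesterol, and all ate a Western diet from the age of 5 weeks until 15 weeks. Thioglycollate was injected into the peritoneum, the cells were taken 5 days afterwards, and those that adhered to plastic within 2 h were kept. By their labels 6 animals were Apoe-/- SR-uPA+/0, called transgenic below, and carried a transgene that overexpresses urokinase plasminogen activator (uPA) in macrophages per the design text. The other 6 were Apoe-/- nontransgenic. The RNA of all 6 animals of a genotype was also combined, and each of these pools was hybridised 2 times.

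The TGF-beta ligands are secreted in a latent complex and must be released before they bind the type II receptor, which then activates the type I receptor and the SMAD transcription factors. Plasmin, which uPA produces from plasminogen, is among the proteases that can release TGF-beta1 from its latent complex. In macrophages TGF-beta restrains inflammatory activation, and macrophages themselves secrete TGF-beta1, VEGF and PDGF, which act on the endothelial cells, fibroblasts and smooth muscle cells around them.

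Of these genes, Vegfc, Egfr and Osmr were lower in the transgenic animals and no gene was higher past the threshold, an adjusted p of 0.05 in a limma fit over all tested probes. Vegfc encodes a growth factor of lymphatic vessels, Egfr the receptor of epidermal growth factor and its relatives, and Osmr the signalling subunit of the oncostatin M receptor. Each had 6 nontransgenic animals above all 6 transgenic animals. Egfr was tested only through its nontransgenic arrays, so a lower transgenic value was part of its selection. Tgfb1, both TGF-beta receptors, Tgfbi, Vegfa, Tgfb2 and Pdgfa did not pass. Because these are bulk samples, fewer cells of a type and less RNA per cell cannot be told apart.

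The promoters of the 3 genes that passed are shown because these genes differed in the same direction. They are the RefSeq promoters of assembly GRCm38.p6, from 250 bases before to 50 bases after the annotated start, read 5′ to 3′ on the gene's strand. Vegfc lies at chr8:54077282-54077581 on the plus strand, Egfr at chr11:16751953-16752252 on the plus strand and Osmr at chr15:6874264-6874563 on the minus strand. Capitals mark matches, on either strand, to 4 motifs: the SMAD motif CAGAC, the AP-1 motif TGANTCA, the GC box GGGCGG and the STAT motif TTCNNNGAA.
Vegfc: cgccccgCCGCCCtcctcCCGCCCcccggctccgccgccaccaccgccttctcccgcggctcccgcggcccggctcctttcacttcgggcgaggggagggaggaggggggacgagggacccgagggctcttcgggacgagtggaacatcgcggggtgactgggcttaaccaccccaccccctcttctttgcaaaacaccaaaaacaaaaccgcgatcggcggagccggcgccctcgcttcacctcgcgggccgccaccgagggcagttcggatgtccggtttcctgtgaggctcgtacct
Egfr: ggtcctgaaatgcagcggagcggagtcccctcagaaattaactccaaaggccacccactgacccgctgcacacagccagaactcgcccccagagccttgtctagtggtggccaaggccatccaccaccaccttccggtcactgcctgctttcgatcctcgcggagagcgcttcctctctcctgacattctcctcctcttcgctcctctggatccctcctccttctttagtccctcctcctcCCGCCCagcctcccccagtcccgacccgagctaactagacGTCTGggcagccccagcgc
Osmr: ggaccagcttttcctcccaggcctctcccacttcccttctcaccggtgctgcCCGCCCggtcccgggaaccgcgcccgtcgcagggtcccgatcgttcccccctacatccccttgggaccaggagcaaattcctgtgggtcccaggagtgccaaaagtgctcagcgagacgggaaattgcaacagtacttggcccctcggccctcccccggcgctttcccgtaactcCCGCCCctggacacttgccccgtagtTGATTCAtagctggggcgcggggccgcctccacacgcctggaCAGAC
The Vegfc promoter held 2 GC boxes and no match to the SMAD, AP-1 or STAT motif. The Egfr promoter held 1 SMAD motif and 1 GC box. The Osmr promoter held 1 SMAD motif, 1 AP-1 motif and 2 GC boxes. Among 32851 promoters of the same length 49.6% held the SMAD motif, 7.81% the AP-1 motif, 35.7% the GC box and 8.30% the STAT motif. A match describes the letters and is not evidence of binding.

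A probe counted as measured on an array where it exceeded a noise limit of 56.8 to 56.9 intensity units, and it was tested if it did so on at least 3 of the 12 animal arrays. Each of the 10 genes had a tested probe, and 11 of their 16 probes were tested. The remaining 5 were other probes of Tgfbr1, Tgfbr2 and Egfr. Of those, 4 never exceeded the limit on an animal array and 1 probe of Tgfbr2 did so on 1 array, so no difference is given for them. Of the 11 tested probes 3 were called lower (27.3%), against 0.627% of all 10534 tested probes, and 0 were called higher by limma, against 0.104%. At an unadjusted p under 0.05, limma had 2 of the 11 higher (Tgfb1 and the second probe of Tgfbi), against 4.03% of all tested probes, and the exact permutation test 1, against 4.69%. Animals of the 2 genotypes were fully separated for 3 of the 11, against 1.08% of all tested probes. All 3 were lower in the transgenic animals, against 0.731% of all tested probes, and 0 were higher, against 0.351%. Egfr, 1 of the 3 in both counts, was tested only because its nontransgenic arrays exceeded the limit, so a lower transgenic value was part of its selection. The genes were also chosen with results of these arrays known, so these shares are a description and support nothing. The median log2 difference of the 11 probes, transgenic minus nontransgenic, was -0.09, and that of all tested probes was 0.01.

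Facts of the whole series bear on these values. Macrophage markers were present: Adgre1, Cd14, Lyz2, Mrc1 and Mertk exceeded the noise limit on all 12 animal arrays, while the probe of Msr1 did so on none. Plau, which encodes uPA, did not separate the labels, with 1660 ± 972 intensity units (SD, n = 6) in transgenic and 1825 ± 1103 (SD, n = 6) in nontransgenic animals (log2 difference -0.10, SE 0.42, limma adjusted p = 0.967). Whether its probe lies in a sequence that the transgene carries is not given, so it may check nothing, and "transgenic" means the library labelled so throughout. The arrays transgenic 1 and transgenic 6 stood apart from the others in an earlier analysis of these data, so results that pass are also given without them. Across all genes 66 probes were lower and 11 higher in transgenic animals. The arrays were run on 2 chips, and which array lay on which is not given, so chip and genotype cannot be told apart.

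**Figure D1:**
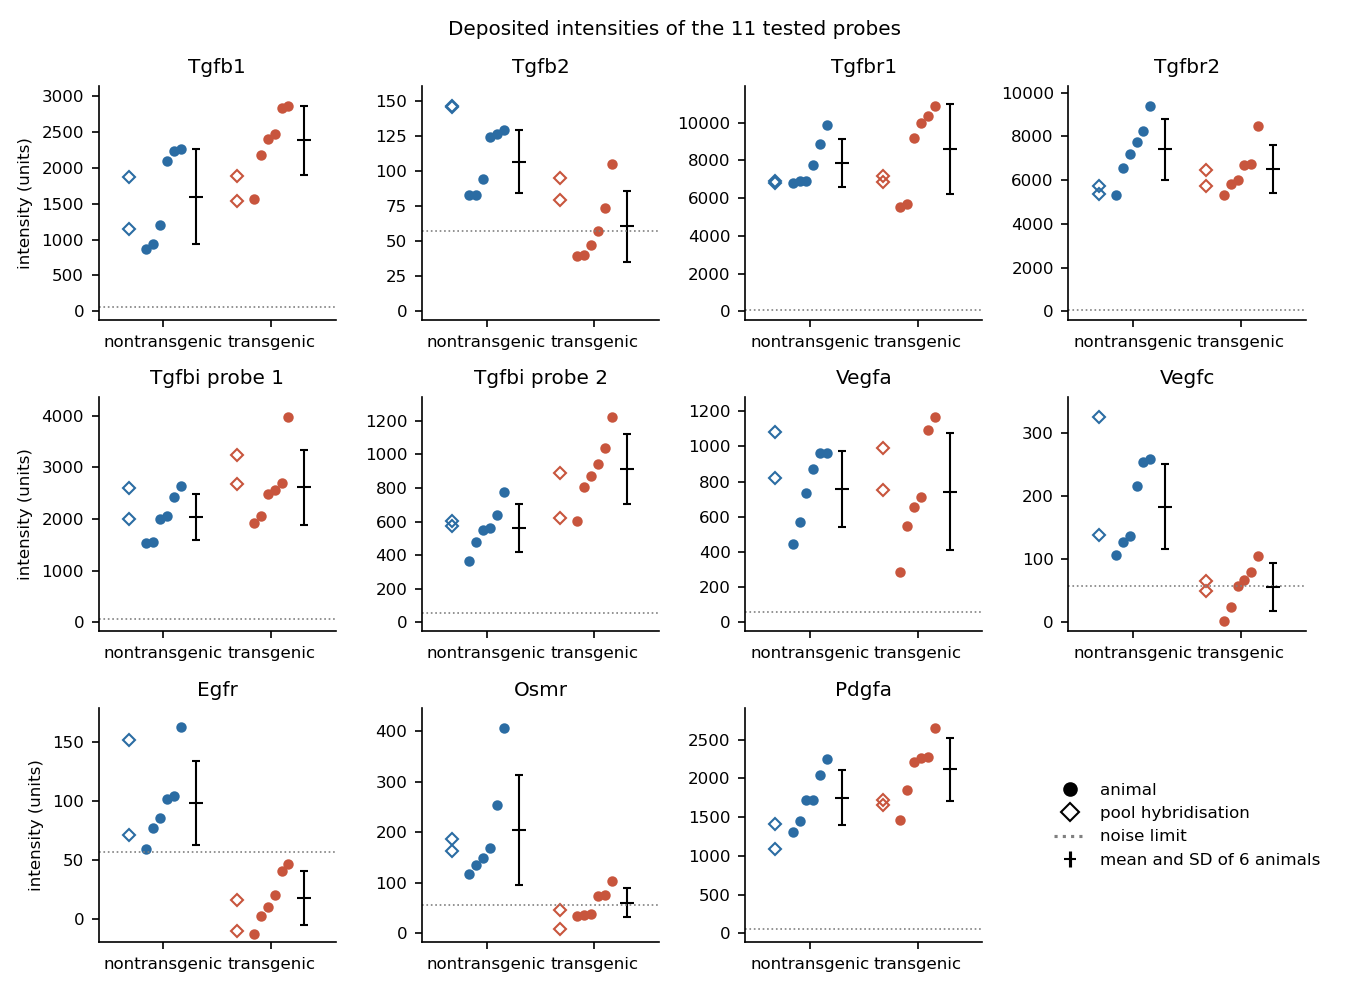
Deposited intensity (units) of the 11 tested probes on each array, with a panel for each probe and its own scale from near 0; filled circles are animals, open diamonds the pool hybridisations, bars the mean and SD of 6 animals and dotted lines the noise limit. In the panels of Vegfc, Egfr and Osmr every nontransgenic animal lies above every transgenic animal, and in those of the other genes the genotypes overlap.

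Among the ligands, Tgfb1, the TGF-beta isoform that macrophages and lymphocytes secrete, was bright on every array. Its nontransgenic animals read 873, 936, 1201, 2092, 2226 and 2256 intensity units in ascending order. The transgenic animals read 1558, 2172, 2397, 2470, 2833 and 2850. The nontransgenic values fell into a low set of 3 and a high set of 3. The low set was nontransgenic 1, 2 and 3 and the high set nontransgenic 4, 5 and 6, numbered in the order of the deposited samples. Which chip each array lay on is not given, so a difference of chips and of animals cannot be told apart here. The high set lay inside the transgenic range, so the genotypes overlapped. The means were 1598 ± 662 (SD, n = 6) in nontransgenic and 2380 ± 480 (SD, n = 6) in transgenic animals, and 5 of 6 transgenic animals lay above the nontransgenic mean. The log2 difference was 0.62 (95% interval 0.13 to 1.12, SE 0.23), which did not pass over all tested probes (limma adjusted p = 0.422; exact two-sided permutation p = 0.0563). The interval excludes 0 only before adjustment. The pools read 1863 and 1149 units for nontransgenic and 1887 and 1532 for transgenic. The difference between the pools was 0.20, smaller than the mean difference of 0.47 between repeat hybridisations of the same pool.

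Tgfb2, an isoform known above all from development and from mesenchymal cells, was dim. It read 82.6 to 129 units (median 109) in nontransgenic animals and 39.1 to 105 (median 52.2) in transgenic animals. It exceeded the noise limit in 6 of 6 nontransgenic and 3 of 6 transgenic animals, and transgenic 2 was the 1 transgenic animal that reached into the nontransgenic range. The means were 106 ± 22.3 (SD, n = 6) and 60.4 ± 25.4 (SD, n = 6). The log2 difference of -0.38 (95% interval -0.64 to -0.12, SE 0.12) did not pass (limma adjusted p = 0.292; exact two-sided permutation p = 0.0152). The pools gave a similar value of -0.40, from 146 and 145 units in nontransgenic against 94.6 and 79.4 in transgenic, and their repeats differed by a mean of 0.06 on the log2 scale.

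The receptors of these ligands were measured at high intensity and neither passed. Tgfbr1, the type I receptor kinase that phosphorylates SMAD2 and SMAD3, read 6805 to 9902 units (median 7345) in nontransgenic and 5522 to 10860 (median 9578) in transgenic animals. The transgenic animals enclosed the nontransgenic range, with transgenic 1 and transgenic 5 below it and transgenic 2, 3 and 4 above it. The log2 difference was 0.09 (95% interval -0.29 to 0.47, SE 0.18; limma adjusted p = 0.929; exact permutation p = 0.667). Tgfbr2, the type II receptor that binds the ligand first, read 5346 to 9372 units (median 7481) in nontransgenic and 5309 to 8490 (median 6355) in transgenic animals. These ranges overlapped almost fully. The log2 difference was -0.18 (95% interval -0.48 to 0.13, SE 0.14; limma adjusted p = 0.802; exact permutation p = 0.262). The pools of Tgfbr2 gave 0.11, the 1 of 11 probes whose pool difference had the opposite sign to that of the animals. Neither interval shows that the genotypes were alike.

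Tgfbi, a secreted matrix protein named for its induction by TGF-beta, was measured by 2 probes. The first read 1541 to 2635 units (median 2024) in nontransgenic and 1928 to 3965 (median 2523) in transgenic animals, with a log2 difference of 0.33 (95% interval -0.03 to 0.69, SE 0.17; limma adjusted p = 0.628). The second read 365 to 779 units (median 555) in nontransgenic and 601 to 1220 (median 907) in transgenic animals. On the second probe 6 of 6 transgenic animals lay above the nontransgenic mean of 562 ± 141 (SD, n = 6), and their own mean was 913 ± 210 (SD, n = 6). Its log2 difference was 0.62 (95% interval 0.27 to 0.97, SE 0.17; exact two-sided permutation p = 0.00866), which did not pass over all tested probes (limma adjusted p = 0.131). The genotypes overlapped on each probe, through nontransgenic 1 and nontransgenic 4 on the second. The probes had the same sign in the animals and in the pools, where the differences were 0.34 and 0.30. Without transgenic 2, its lowest transgenic animal, the second probe had 0.72 (limma adjusted p = 0.0439), and transgenic 2 therefore decides that side of the threshold.

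Vegfa and Vegfc are related ligands. Vegfa, the main growth factor of blood vessels, read 443 to 965 units (median 802) in nontransgenic and 286 to 1164 (median 682) in transgenic animals. The transgenic range enclosed the nontransgenic one, and the within-genotype SD of 0.52 on the log2 scale was the highest of the 11 probes. The log2 difference was -0.09 (95% interval -0.62 to 0.45, SE 0.25; limma adjusted p = 0.953; exact permutation p = 0.792), and it turned to 0.12 without transgenic 6, the animal with the lowest reading. Vegfc, which acts on lymphatic endothelium through the receptor Flt4, was dim. The nontransgenic animals read 107, 127, 137, 217, 254 and 259 units. The transgenic animals read 1.70, 24.6, 57.9, 67.8, 80.6 and 106. The highest transgenic animal, transgenic 2, lay just under the lowest nontransgenic animal, nontransgenic 3, so the ranges met without overlapping. The means were 183 ± 67.7 (SD, n = 6) and 56.4 ± 37.8 (SD, n = 6), and 4 of 6 transgenic animals exceeded the noise limit.

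Vegfc fell by 0.88 on the log2 scale in the transgenic animals (95% interval -1.27 to -0.48, SE 0.19; limma adjusted p = 0.0386), which is 1.83-fold lower. The exact two-sided permutation p was 0.00216, the smallest that 6 against 6 animals can give. About 97 units were in effect added to each value before the log, so this fold understates the change of a dim gene. With dim values set to the noise limit instead, the difference was -1.32 (limma adjusted p = 0.0235). The pools gave -1.03, from 325 and 139 units in nontransgenic against 49.0 and 65.9 in transgenic, with a mean difference of 0.50 between repeats of a pool. The call was lost without transgenic 1 and transgenic 6 (-0.92, limma adjusted p = 0.0721) and in 8 of 12 fits that each left out 1 animal. Those fits gave -0.96 to -0.76, and the adjusted p went up to 0.119 without nontransgenic 2.

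Egfr, the receptor tyrosine kinase of the epidermal growth factor family, was tested through 1 of 2 probes. The nontransgenic animals read 60.0, 77.6, 86.0, 102, 104 and 163 units. The transgenic animals read -12.3, 3.25, 10.1, 20.7, 41.0 and 47.2, where a value below 0 is below the background that the authors subtracted. All 6 nontransgenic animals lay above the noise limit and all 6 transgenic animals below it. The probe therefore entered the fit only through the nontransgenic arrays, so a difference in this direction was part of its selection. The transgenic level has only an upper bound, and Egfr was at least 1.26-fold lower there. This bound, given without a test, sets the nontransgenic mean against the lowest normalized value above the noise limit on each array. The measured means were 98.8 ± 35.4 (SD, n = 6) and 18.3 ± 22.7 (SD, n = 6). The fitted log2 difference was -0.77 (95% interval -1.08 to -0.45, SE 0.15; limma adjusted p = 0.0191; exact permutation p = 0.00216). The pools read 71.7 and 152 units in nontransgenic and -9.46 and 16.5 in transgenic. The limma call was lost without transgenic 1 and transgenic 6 (-0.68, adjusted p = 0.0623), without nontransgenic 2 (-0.76, adjusted p = 0.0581), without transgenic 4 (-0.73, adjusted p = 0.0612) and with dim values set to the noise limit (-0.73, adjusted p = 0.144). The second Egfr probe never exceeded the limit, with -44.9 to 5.13 units in nontransgenic and -53.0 to 2.61 in transgenic animals.

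Osmr pairs with gp130 to bind oncostatin M, a cytokine of the interleukin-6 family that macrophages and neutrophils secrete. The nontransgenic animals read 118, 135, 149, 170, 254 and 406 units. The transgenic animals read 33.5, 37.2, 39.2, 75.0, 76.4 and 103. No transgenic animal reached the lowest nontransgenic animal, and nontransgenic 2 stood highest by a wide margin. The means were 205 ± 109 (SD, n = 6) and 60.7 ± 28.3 (SD, n = 6), and 3 of 6 transgenic animals exceeded the noise limit. Osmr fell by 0.89 on the log2 scale in the transgenic animals (95% interval -1.29 to -0.49, SE 0.19; limma adjusted p = 0.0366; exact permutation p = 0.00216), which is 1.85-fold lower. With dim values set to the noise limit the difference was -1.43 (limma adjusted p = 0.0305). The pools gave -1.15, from 188 and 162 units in nontransgenic against 46.2 and 8.11 in transgenic. The limma call was lost without transgenic 1 and transgenic 6 (-0.78, adjusted p = 0.145) and in 8 of 12 fits that each left out 1 animal. Those fits gave -0.97 to -0.73, and the adjusted p went up to 0.107 without transgenic 4.

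Pdgfa, the ligand of the receptor Pdgfra and a mitogen of mesenchymal cells, read 1308 to 2250 units (median 1720) in nontransgenic and 1461 to 2643 (median 2238) in transgenic animals. The genotypes overlapped, with transgenic 1 lowest and transgenic 2 highest among the transgenic animals. The log2 difference of 0.26 (95% interval -0.07 to 0.58, SE 0.15) did not pass (limma adjusted p = 0.699; exact permutation p = 0.147). The pools gave 0.41.

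**Figure D2:**
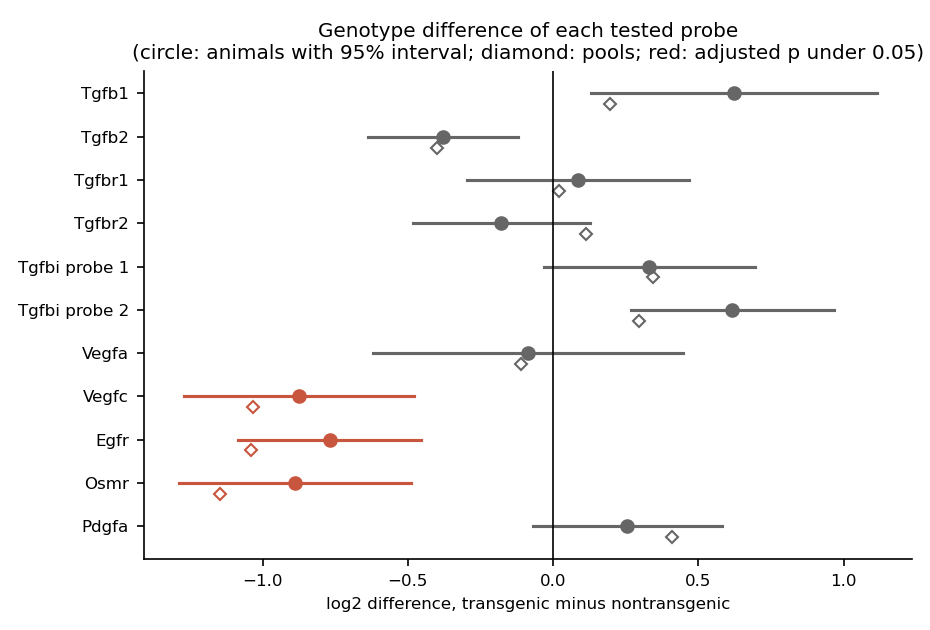
Log2 difference, transgenic minus nontransgenic, on the horizontal axis for each of the 11 tested probes, with circles and 95% intervals for the animals (6 per genotype), diamonds for the pools (2 hybridisations each) and red for probes past the threshold. Vegfc, Egfr and Osmr lie furthest to the left, between -0.89 and -0.77, and the pool value falls on the same side of 0 as the animals for 10 of 11 probes.

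Within a genotype these genes varied more between animals than most. The SD of the log2 values around the genotype means ran from 0.19 for Tgfb2 to 0.52 for Vegfa, and it was above the median of all tested probes, 0.24, for 10 of 11 probes. Repeat hybridisations of a pool differed by a mean of 0.05 for Tgfbr1 and by up to 0.50 for Vegfc on the log2 scale, against a median of 0.21 over all tested probes. The pool differences of Vegfc, Egfr and Tgfb1 therefore carry an error of about this size, since their repeats differed by 0.50, 0.47 and 0.47.

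Markers of cells other than macrophages differed with the genotype labels. Of 13 fibroblast markers on the array 8 were tested, and 4 of them (Col1a1, Col3a1, Col6a1 and Serping1) passed as lower in transgenic animals. Col3a1 exceeded the noise limit in 6 nontransgenic and 0 transgenic animals. It was thus tested, and entered the marker mean, only through the nontransgenic arrays, so a difference in this direction was part of its selection. The mean log2 value of the 8 tested markers ran from 8.89 to 9.74 in nontransgenic and from 7.40 to 8.60 in transgenic animals. The summed intensity of all 13 on the array ran from 7024 to 14011 and from 784 to 5706 units. Of the fibroblast markers that were not tested, Lum, Postn and Fbln1 were never above the noise limit, and Col1a2 and Thy1 were above it on 1 array each. Of the tested ones, Col6a1, Dcn and Serping1 were above it on all 12 animal arrays and Mmp2, the least often, on 5. Of 14 neutrophil markers 9 were tested, and 4 (S100a8, S100a9, Retnlg and Pglyrp1) passed as higher in transgenic animals. The mean of the 9 tested markers ran from 8.75 to 9.60 in nontransgenic and from 9.59 to 10.65 in transgenic animals. The summed intensities of all 14 were 4798 to 18244 and 12321 to 45433 units, while Ngp, Mmp8, Elane and Mpo stayed below the limit on all 12 arrays. The 9 tested macrophage markers had a mean of 10.89 to 11.09 in nontransgenic and 10.80 to 11.21 in transgenic animals, and none passed. Markers of mesothelial cells (9 on the array, 6 tested), endothelial cells (8, 3 tested), platelets (5, 3 tested), B cells (7, 3 tested) and eosinophils and mast cells (8, 1 tested) had none past the threshold, with mean log2 differences of -0.16, -0.34, -0.21, 0.30 and -0.36. The summed intensity of the 8 endothelial markers, most of it Vwf, ran from 2118 to 2787 units in nontransgenic and from 1027 to 2094 in transgenic animals. These ranges did not overlap, though Vwf did not pass (limma adjusted p = 0.205). The sums of the mesothelial, platelet, B cell, and eosinophil and mast cell markers overlapped. None of 5 T cell markers was tested.

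With the fibroblast and neutrophil means as further terms of the fit, the log2 difference was -0.21 for Vegfc (SE 0.40, limma adjusted p = 0.931), -0.31 for Osmr (SE 0.36, adjusted p = 0.887) and -0.83 for Egfr (SE 0.29, adjusted p = 0.531). The estimates of Vegfc and Osmr were thus closer to 0 and that of Egfr was not, and none of the 3 passed. The fibroblast means of the genotypes do not overlap, so the terms and the genotype share most of their variation, as the wider errors show. The part of either cell type in these differences was not tested.

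The tie to these markers was also read within genotypes, from the deviations of each animal from its genotype mean, in 20 relations over 12 animals. The fibroblast mean went with Osmr (Pearson r = 0.71, permutation p = 0.00601, adjusted 0.120; Spearman rho = 0.77, permutation p = 0.00263, adjusted 0.0526). Without the 2 animals farthest from the median, transgenic 1 and transgenic 4, r was 0.74, and it was 0.96 within nontransgenic and 0.58 within transgenic animals. Neither coefficient passed after adjustment. For Vegfc r was 0.58 (permutation p = 0.0632, adjusted 0.253) and rho 0.67 (permutation p = 0.0287, adjusted 0.227), with 0.63 without those 2 animals and 0.59 within each genotype. For Egfr r was 0.51 (permutation p = 0.119, adjusted 0.309) and rho 0.64 (permutation p = 0.0454, adjusted 0.227). The relation of Egfr rests on those 2 animals, since r was 0.05 without them, and it was 0.39 within nontransgenic and 0.58 within transgenic animals. All 6 transgenic values of Egfr lay below the noise limit, so the coefficient within transgenic animals cannot be read as a relation of measured levels. The same values enter the coefficients of Egfr over 12 animals. Osmr exceeded the noise limit in 3 of 6 transgenic animals and Vegfc in 4 of 6. Their coefficients within transgenic animals thus rest partly on values below it.

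Genes that did not pass between genotypes showed such relations as well. For Tgfb2 and the fibroblast mean r was 0.69 (permutation p = 0.0227, adjusted 0.151) and rho 0.65 (permutation p = 0.0366, adjusted 0.227), with 0.54 without transgenic 1 and 4, 0.55 within nontransgenic and 0.77 within transgenic animals. For Pdgfa r was 0.64 (permutation p = 0.0338, adjusted 0.169) and rho 0.58 (permutation p = 0.0591, adjusted 0.236), with 0.54 without those animals, 0.44 within nontransgenic and 0.79 within transgenic animals. The genotype difference of Pdgfa was positive and that of the fibroblast mean negative, but neither the relation nor the genotype difference of Pdgfa passed. What lies behind these signs was not tested. Tgfb2 exceeded the noise limit in 3 of 6 transgenic animals, so its coefficient within transgenic animals rests partly on values below it. For Tgfbi, by its brighter probe, and the neutrophil mean r was 0.68 (permutation p = 0.0225, adjusted 0.151) and rho 0.53 (permutation p = 0.0947, adjusted 0.237), with 0.47 without transgenic 3 and nontransgenic 5, 0.77 within nontransgenic and 0.62 within transgenic animals. The sign was positive for 9 of 10 genes with the fibroblast mean, all but Tgfb1 (r = -0.31, permutation p = 0.315, adjusted 0.574), and for 3 of 10 with the neutrophil mean. No relation passed after adjustment over the 20, where the lowest values were 0.120 for r and 0.0526 for rho.

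**Figure D3:**
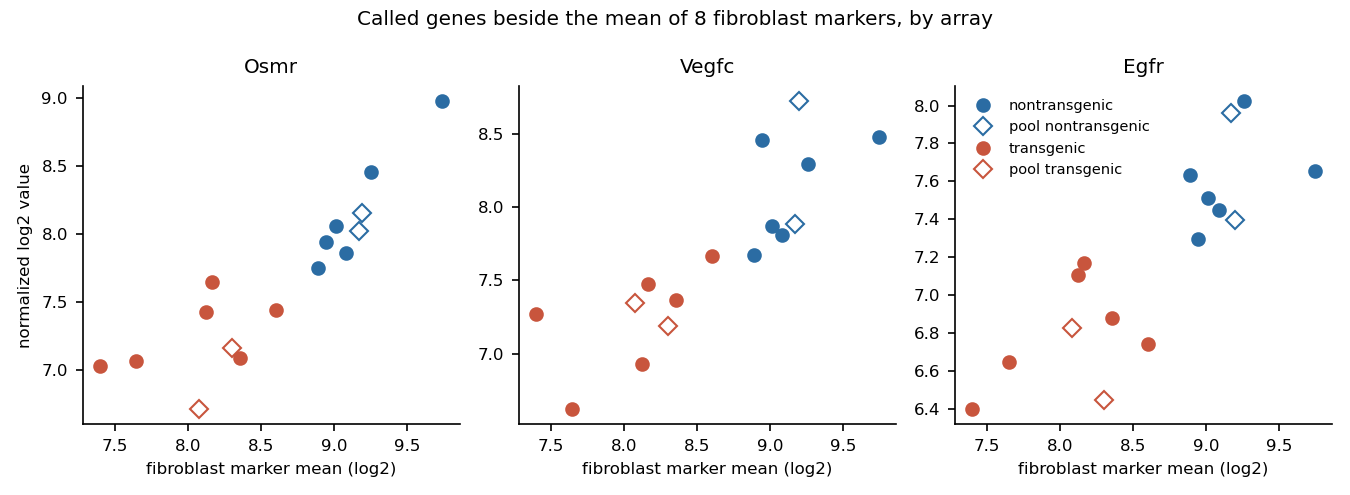
Normalized log2 value of Osmr, Vegfc and Egfr (vertical axis) against the mean log2 value of 8 fibroblast markers (horizontal axis), with a point for each array, circles for animals and diamonds for pools. Nontransgenic arrays lie at marker means of 8.89 to 9.74 and transgenic animals at 7.40 to 8.60, and within the nontransgenic animals Osmr climbs with the marker mean (r = 0.96).

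The rest of each pathway was read from 9 lists of growth factor genes, which hold 166 genes, 147 of them on the array and 87 tested. Of these 87, 4 were lower (Vegfc, Egfr, Osmr and Ltbp2) and 0 were higher, where 0.746% of all 7510 tested genes were lower and 0.133% higher, by the brightest probe of each gene. Of the 4, Egfr was tested only through its nontransgenic arrays, so a lower transgenic value was part of its selection. The median log2 difference of the 87 genes was -0.05, and that of all tested genes was 0.01. Without the 10 genes described above, 1 of 77 passed. By limma's unadjusted p 10 of those 77 lay under 0.05, where 8.88% of all tested genes did, and 4 of the 87 were higher at that level, against 4.03% of all tested genes.

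In the TGF-beta branch the 1 other gene past the threshold by its brightest probe was Ltbp2, an extracellular matrix protein of the latent TGF-beta binding protein family that itself does not bind latent TGF-beta. It read 331 ± 138 units (SD, n = 6) in nontransgenic animals, from 179 to 523, and 64.1 ± 73.4 (SD, n = 6) in transgenic animals, from -42.9 to 157. The ranges did not overlap, and 3 of 6 transgenic animals exceeded the noise limit. Ltbp2 fell by 1.51 on the log2 scale (SE 0.31, limma adjusted p = 0.0267), a call that was lost in 5 of 12 fits that each left out 1 animal: without nontransgenic 1 (0.0706), 2 (0.0862) or 6 (0.0598), or without transgenic 3 (0.0740) or 4 (0.0597). It was also lost with trend and robust moderation (0.0597), without a filter on dim probes (0.0865) and with marker means as terms (-0.35, 0.926). The exact permutation test per probe gave an adjusted p of 0.202. That was the lowest of any probe in that test, so it cannot decide the call. Dcn, the proteoglycan decorin, which binds TGF-beta and is also in the fibroblast list, was chosen for mention after its values were seen. It was measured by 3 tested probes, with log2 differences of -1.58 for the brightest (SE 0.37, limma adjusted p = 0.0666), -1.20 for another (SE 0.24, limma adjusted p = 0.0265) and -0.98 for the third (SE 0.32, limma adjusted p = 0.309), so 1 of 3 passed. Ltbp2 was 1 of 12 tested genes of latency, activation and antagonism (median log2 difference 0.03) and also 1 of 11 tested TGF-beta targets (median -0.10). None of 7 ligands of the superfamily (median -0.19), 7 receptors (median 0.05) or 13 SMADs and SMAD regulators (median -0.06) passed. Among the ligands Tgfb3 had -0.31 (limma adjusted p = 0.36) and Gdf3 -0.26 (0.736). Tgfb3 exceeded the noise limit in 3 nontransgenic and 0 transgenic animals, so it was tested only through the nontransgenic arrays. With dim values set to the noise limit Tgfb3 had -0.16. Among the receptors Acvr2b, a type II receptor of activins, had 0.27 (limma adjusted p = 0.573), and Acvrl1, a type I receptor of BMP9 and BMP10, had 0.16 (0.82). Fkbp1a, which binds the type I receptor and holds it inactive, had -0.14 (limma adjusted p = 0.772), and Smad3, which carries the signal of the activated receptor, had -0.13 (0.835).

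Around the other growth factors, only Vegfc passed among 12 tested VEGF and PDGF genes (median -0.10). Pdgfra, the receptor of Pdgfa and a marker in the fibroblast list, read 449 ± 374 units (SD, n = 6) in nontransgenic and 114 ± 51.5 (SD, n = 6) in transgenic animals, with a log2 difference of -1.19 that did not pass (limma adjusted p = 0.102). Flt1, a receptor of Vegfa, had -0.22 (limma adjusted p = 0.697). Egfr, tested only through its nontransgenic arrays, was the 1 gene past the threshold among 5 tested genes of the EGF family (median -0.07). Its ligand Hbegf had -0.45 (limma adjusted p = 0.554). Adam17, the protease that sheds such ligands, had 0.06 (limma adjusted p = 0.93). Hbegf was dim, above the noise limit in 3 nontransgenic animals and 1 transgenic animal, and had -0.14 with dim values set to that limit. Osmr was the 1 gene past it among 11 tested genes of the interleukin-6 family (median -0.06). The kinases of that pathway had log2 differences of -0.43 for Jak2 (limma adjusted p = 0.404) and 0.22 for Jak1 (0.755). None of 11 other growth factor genes passed (median 0.26), including Csf1, the main growth factor of macrophages (0.69, limma adjusted p = 0.404), and Csf3r, the receptor of G-CSF and a neutrophil marker (0.60, limma adjusted p = 0.109), whose second probe had 0.26.

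**Figure D4:**
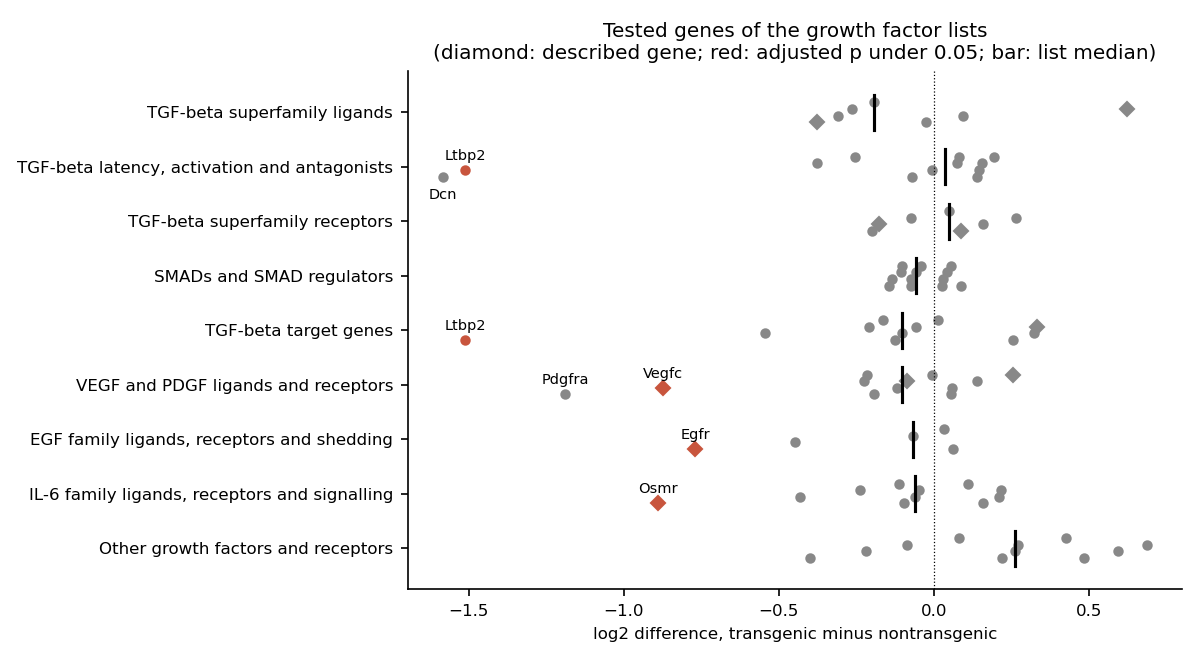
Log2 difference, transgenic minus nontransgenic (horizontal axis), of the tested genes of 9 growth factor lists (vertical axis, a gene may stand in 2 lists), with diamonds for the 10 genes described, red for genes past the threshold and a bar for each list median. The red points are Ltbp2, Vegfc, Egfr and Osmr, and the list medians lie between -0.19 and 0.26.

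The genes whose values ran most like those of Vegfc, Egfr, Osmr and Tgfb1 were ranked by Pearson r of the deviations from the genotype means, over 12 animals and among 5664 genes above the noise limit on all of them. For Vegfc they were Gtf2ird2 (0.85), Acot11 (0.83) and Hacd3 (0.82). For Egfr, whose 6 transgenic values all lay below the noise limit, they were Lman1 (0.92), Srrm4 (0.90) and Fyco1 (0.87). For Osmr they were Ift43 (0.86), Spsb1 (0.83) and Col4a2 (0.81), the last a basement membrane collagen. For Tgfb1 they were Ddx6 (0.92), Zmiz1 (0.91) and Agpat1 (0.91). None of these 12 genes passed between genotypes. These are the highest of 5664 coefficients and are given without a test.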

How the data were processed

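Per the labels, 12 arrays held RNA of single animals, 6 of each genotype, and 4 held repeat hybridisations of the 2 pools. The values are linear intensities as the authors deposited them. They had nearly the same scale on every array before the steps below, with noise limits of 56.8 to 56.9 units and 9543 to 9551 probes above them. The noise limit is therefore not an independent noise level of each array. BeadStudio is named in the submitters' processing notes. Deposited intensity values run below 0, so a background had been subtracted, by a method that, like the BeadStudio version, was not given in the sources used here. Another table, of 32 columns, was not used, because its columns carry running numbers that match no label.

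Background was modelled with limma's normexp step (saddle method, offset 16), which added a median of 96.96 units and so understates folds of dim genes, followed by quantile normalization of the 12 animal arrays and log2. The noise limit was 1.64 times the root mean square of an array's values below 0. After 4 control probes were left out, 10534 of 24607 probes were tested, those that exceeded this limit in 3 or more of the 12 animals. Tests used limma 3.58.1 (lmFit and eBayes, two-sided) in R 4.3.3, with Benjamini-Hochberg adjustment over the 10534 probes and a threshold of 0.05, and, beside them, two-sided exact permutation tests that ran through all 924 assignments. Pools entered no test. Relations used 100000 permutations within genotype. Animals are separate biological samples, and their number limits the precision.

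Symbols came from the platform annotation, which gave 1 symbol for 19852 probes and none here for 4755. A gene with several tested probes was represented by the brightest. The genes and lists were chosen with earlier results of these data known. Named genes are the 10 genes with all probes, Plau, from each pathway list up to 4 other genes past the threshold or the 2 with the smallest p, and the 3 genes most like each of Vegfc, Egfr, Osmr and Tgfb1. Tested on simulated data drawn for the animal comparison (10123 probes tested) the procedure recovered 38.8% of the 67 probes given a 1.5-fold change, 80.6% of the 67 given a 2-fold change and 98.5% of the 66 given a 4-fold change, with 2 unchanged probes among 147 called. The changed probes were drawn only from those above a cut on mean intensity, and Egfr and Tgfb2 lie below that cut. The recovery of changes in genes as dim as these was not tested. Alternatives covered the background step, offset 50, median scaling, the authors' normalization kept, all 16 arrays, the filter, a limit of 2.33 times, trend and robust moderation, array weights (statmod 1.5.0), a permutation test per probe, leaving out animals, and marker means as terms.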

Additional observations from a re-analysis of the deposited data

Results flagged for a closer look

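In 26 groups of 6 animals, the tested probes of the 10 genes and the fibroblast and neutrophil marker means, 1 animal lay far from the others by Dixon's criterion. It was nontransgenic 1, whose mean of the neutrophil markers was 9.60 on the log2 scale, against 8.75 to 9.03 in the other nontransgenic animals (gap over range 0.67, above the 95% critical value for 6 samples). Chance gives about 1 such value in 20 groups. None of the 10 genes had an animal set apart in this way.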

How the results depend on the processing

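The calls for Vegfc, Egfr and Osmr kept their sign in every fit run and passed in 8 of 12, 7 of 12 and 8 of 12 settings that kept all animals or left out 2. Without a filter on dim probes, which adds tests, the values were the same. The limma adjusted p rose there to 0.117 for Vegfc (-0.88), 0.0691 for Egfr (-0.77) and 0.113 for Osmr (-0.89). The 12 settings include a permutation test per probe, where each of these genes had an adjusted p of 0.202. The smallest permutation p, 0.00216, adjusts to 0.202 over all tested probes, so no probe could pass there. Egfr had -0.73 (0.144) with dim values set to the noise limit. Without transgenic 1 and 6 the values were -0.92, -0.68 and -0.78 (0.0721, 0.0623 and 0.145), and with marker means as terms -0.21, -0.83 and -0.31 (0.931, 0.531 and 0.887); the cause was not tested. Leaving out 1 animal gave -0.96 to -0.76 for Vegfc, -0.84 to -0.68 for Egfr and -0.97 to -0.73 for Osmr, with calls in 4, 10 and 4 of 12 fits. Vegfc was called without nontransgenic 3 or 4 or transgenic 2 or 6, Osmr without nontransgenic 3 or 4 or transgenic 2 or 5, and Egfr in all but the fits without nontransgenic 2 or transgenic 4. Without nontransgenic 2 or transgenic 4 only 34 and 39 probes were lower. Counts over all probes, 11 higher and 66 lower, were 7 and 35 without a filter, 5 and 28 with probes above noise on all 12 animals, 0 and 0 by permutation (911 at an unadjusted p under 0.05), 0 and 1 with marker means, 7 and 73 without transgenic 1 and 6, and 6 to 15 and 34 to 78 without 1 animal. Of the growth factor lists 4 genes were lower; the count was 0 without a filter, 0 with marker means and 2 without transgenic 1 and 6, namely Ltbp2 (0.0223) of the 4 and Dcn (-1.25, 0.0377), which was not among them. Signs turned for Tgfbr2 (0.29) and the Tgfbi probes (-0.14 and -0.12) with marker means, and for Vegfa with marker means (0.64), array weights (0.00308), without 1 animal (-0.22 to 0.12, positive without transgenic 6) and without transgenic 1 and 6 (0.18); none was called and the cause was not tested. Vegfc, Egfr, Osmr and Tgfb2 have no value where probes must exceed the limit on all 12 animals. No paired analysis was possible because the animals' labels share no numbers, and those of the pools number repeat hybridisations, which entered no test. Dim signal limits Vegfc, Egfr, Osmr and Tgfb2, whose transgenic levels lie near or under the noise limit.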
